A study of Mus musculus with 2 samples.

Results

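Cholesterol synthesis and its control by the sterol regulatory element-binding proteins (SREBPs) were followed through 26 member genes in single-cell RNA-seq of mouse skin epidermis. The members were chosen by name for their roles and cover 4 stretches of the pathway: 8 genes of the mevalonate steps, 3 of the squalene steps, 8 of the sterol steps and 7 regulators. All 26 were among the 32286 features of both libraries. Control cells were taken from mice of the genotype Involucrin-CREER/Rosa-SmoM2. In these a CreER recombinase driven by the involucrin promoter, which is active in differentiating keratinocytes, switches on SmoM2, an activated form of the hedgehog pathway component Smoothened, tagged with YFP. The GOF library carries the same Involucrin-CREER/Rosa-SmoM2 alleles and in addition Krt14rtTA, an rtTA driven by the Krt14 promoter, and Survivin GOF, a gain-of-function allele of Survivin. Cells of both were sorted as α6High/CD34-/YFP+. The sorted GOF cells are described as also carrying a fluorescent Survivin fusion, so Birc5 counts may include transgene reads. The series asks what Survivin does in the formation of basal cell carcinoma. The sources used here do not give the age, the timing of induction or the number of mice per library.

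Each genotype is 1 library, so no test between genotypes is possible and no difference has a replicate check. Values are CPM, the UMIs of a gene scaled to a fixed total of UMIs of a population, summed over its cells, with exact Poisson 95% intervals, and ratios of CPM carry exact conditional 95% intervals. All these intervals cover counting error only. A ratio of 1.5 or more in either direction, in genes with at least 50 UMIs over the populations compared, was used to count genes as higher or lower. After filters, 10121 control and 6317 GOF keratinocytes remained, with 99019581 and 97998592 UMIs and a median of 7627 and 12312 UMIs per cell. The libraries shared 22 cell barcodes among those that passed. They differ in sex: 7350 control cells were called male and 30 female from Y-linked genes and Xist, against 1804 male and 3607 female in the GOF library. Birc5, which encodes Survivin, stood at 55.1 CPM and 793 CPM in control and GOF keratinocytes, in the direction of the labels.

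Cells build cholesterol from acetyl-CoA. The mevalonate steps make the isoprenoid units, the squalene steps join and cyclise them to lanosterol, and the sterol steps trim lanosterol to cholesterol. When sterols in the endoplasmic reticulum are low, SCAP escorts the SREBPs to the Golgi, where they are cut and released to switch on most genes of the pathway. When sterols are high, the INSIG proteins hold SCAP back. Sebaceous gland cells make sebum from these lipids, suprabasal keratinocytes place cholesterol in the lamellae of the skin barrier, and cholesterol also binds Smoothened.

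Cells were clustered without the member genes, and the clusters were named from marker lists. Sebaceous-like cells were clusters 18 and 2 (304 control and 229 GOF cells). Cluster 18 was led by Fa2h, Cidea, Far2, Elovl6 and Elovl3 and had 10 of the 13 sebaceous markers at 2-fold or more. Cluster 2 had 5 of them, with Akr1c18, Gstp3, Lcn2 and Pparg, the receptor that drives sebocyte differentiation, among its leading genes. Summed over the list, of which Dgat2l6 was at 0, the 13 markers stood at 15444 and 14044 CPM in cluster 18, 3663 and 3984 CPM in cluster 2 and 300.4 and 124 CPM in basal-like cells. Of 4 adipocyte markers 3 control and 2 GOF ones were detected in the sebaceous-like class, at 611 and 366 CPM in all, with Adipoq, their most specific member, at 0 in both. The 2 clusters made up the class in different proportions: cluster 18 gave 273 control and 108 GOF cells, and cluster 2 gave 31 and 121. Hedgehog-high cells (clusters 12, 13 and 14, 1786 and 1024 cells) were named from a list of markers that includes YFP and the hedgehog targets Gli1 and Hhip. They had YFP at 32.4 and 30.8 CPM, a level that is not independent of the naming. Suprabasal-like cells (cluster 3, 633 and 374 cells) were led by Krt2, Krt10 and Krt1. Basal-like cells (clusters 8, 9 and 23, 1546 and 1597 cells) were mostly cluster 8 in the control, with 1072 control and 28 GOF cells, and mostly cluster 23 in the GOF library, with 19 and 1020. Cluster 9 was filled from both, with 455 and 549. The sort also held 113 and 125 melanocyte-like and 60 and 52 immune-like cells, which were kept out of the keratinocytes. YFP was low in the other 3 classes although the cells were sorted for it, at 1.17 and 0.51 CPM in sebaceous-like, 7.15 and 0.42 CPM in suprabasal-like and 3.26 and 1.05 CPM in basal-like cells.

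The start-site windows of 4 members show the letters that SREBPs and their partners are known to bind, where these occur. Each window runs from 250 bases before to 50 bases after the start, 5′ to 3′ on the gene's strand, from RefSeq on GRCm38.p6. Capitals mark the sterol regulatory element TCACNCCAC, bound by SREBPs, and the CCAAT box or its complement ATTGG, bound by NF-Y, a factor that acts together with SREBPs. Hmgcs1 is shown as the member whose window holds the element, Idi1 and Mvd as members with some of the widest gaps between sebaceous-like and basal-like cells, and Sc5d as a member with the opposite pattern. The windows lie at chr13:119690101-119690400 (plus strand, Hmgcs1), chr13:8885356-8885655 (plus, Idi1), chr8:122443373-122443672 (minus, Mvd) and chr9:42264251-42264550 (minus, Sc5d).
Hmgcs1: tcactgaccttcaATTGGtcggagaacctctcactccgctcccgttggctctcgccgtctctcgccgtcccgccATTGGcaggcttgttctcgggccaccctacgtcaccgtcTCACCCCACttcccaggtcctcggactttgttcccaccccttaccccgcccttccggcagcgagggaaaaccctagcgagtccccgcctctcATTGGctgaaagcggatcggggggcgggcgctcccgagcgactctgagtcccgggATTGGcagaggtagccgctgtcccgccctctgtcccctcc
Idi1: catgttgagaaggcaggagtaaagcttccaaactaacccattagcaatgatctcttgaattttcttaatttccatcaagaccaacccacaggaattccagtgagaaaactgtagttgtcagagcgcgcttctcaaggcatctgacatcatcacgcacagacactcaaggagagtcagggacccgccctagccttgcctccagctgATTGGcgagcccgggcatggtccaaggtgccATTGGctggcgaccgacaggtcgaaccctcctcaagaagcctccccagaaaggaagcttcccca
Mvd: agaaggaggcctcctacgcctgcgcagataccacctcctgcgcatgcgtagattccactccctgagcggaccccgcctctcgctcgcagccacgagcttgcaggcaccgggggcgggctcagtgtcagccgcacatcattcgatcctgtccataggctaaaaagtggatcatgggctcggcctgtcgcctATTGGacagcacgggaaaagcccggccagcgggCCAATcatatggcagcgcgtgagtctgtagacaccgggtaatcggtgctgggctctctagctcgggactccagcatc
Sc5d: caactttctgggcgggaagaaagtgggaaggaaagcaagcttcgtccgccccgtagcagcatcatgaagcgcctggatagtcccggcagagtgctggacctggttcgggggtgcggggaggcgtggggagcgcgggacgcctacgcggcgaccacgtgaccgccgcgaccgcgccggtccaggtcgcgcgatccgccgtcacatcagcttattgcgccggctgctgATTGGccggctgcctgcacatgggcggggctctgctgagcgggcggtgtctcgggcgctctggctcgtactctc

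Of the 26 members, 22 had such a window. TCACNCCAC was found, on either strand, in 1 of these 22 genes (4.55%), Hmgcs1, 137 bases before the start, against 1.44% of the 27025 genes with a window. CCAAT was present in 19 of 22 (86.4%) against 41.1% of all genes, and the GC box GGGCGG, bound by SP1, in 19 of 22 (86.4%) against 38.2%. The palindrome CACGTG, an E-box, was found in 5 of 22 (22.7%) against 8.09%. Hmgcs1 held 4 CCAAT boxes and 3 GC boxes, Idi1 held 2 and 1, Mvd 2 and 1, and Sc5d 1 and 4. A match is a description of the letters in the window, and no match says nothing of elements elsewhere or spelled differently.

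Sebaceous-like cells held the pathway at levels far above the other classes, in both libraries. In sebaceous-like cells the members summed to 18154 CPM (control) and 9910 CPM (GOF), against 1978 and 1664 CPM in suprabasal-like, 1199 and 819 CPM in hedgehog-high and 935 and 746 CPM in basal-like cells. The 304 sebaceous-like cells, 3.004% of control keratinocytes, held 40.3% of all member UMIs of that library, and the 229 of the GOF library, 3.63% of its keratinocytes, held 39.2%. Relative to basal-like cells, 23 of 26 members were higher by 1.5-fold or more in the control, where 19.6% of all genes tested were, and 23 of 26 in the GOF library, where 20.0% were. The median log2 ratio of the members was 4.31 and 3.70, against −0.25 and −0.06 over all genes. The widest gaps were found in Mvd and Idi1. The plot of levels by class shows that the order of the 4 classes was the same in both libraries for 20 members.

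**Figure D1:**
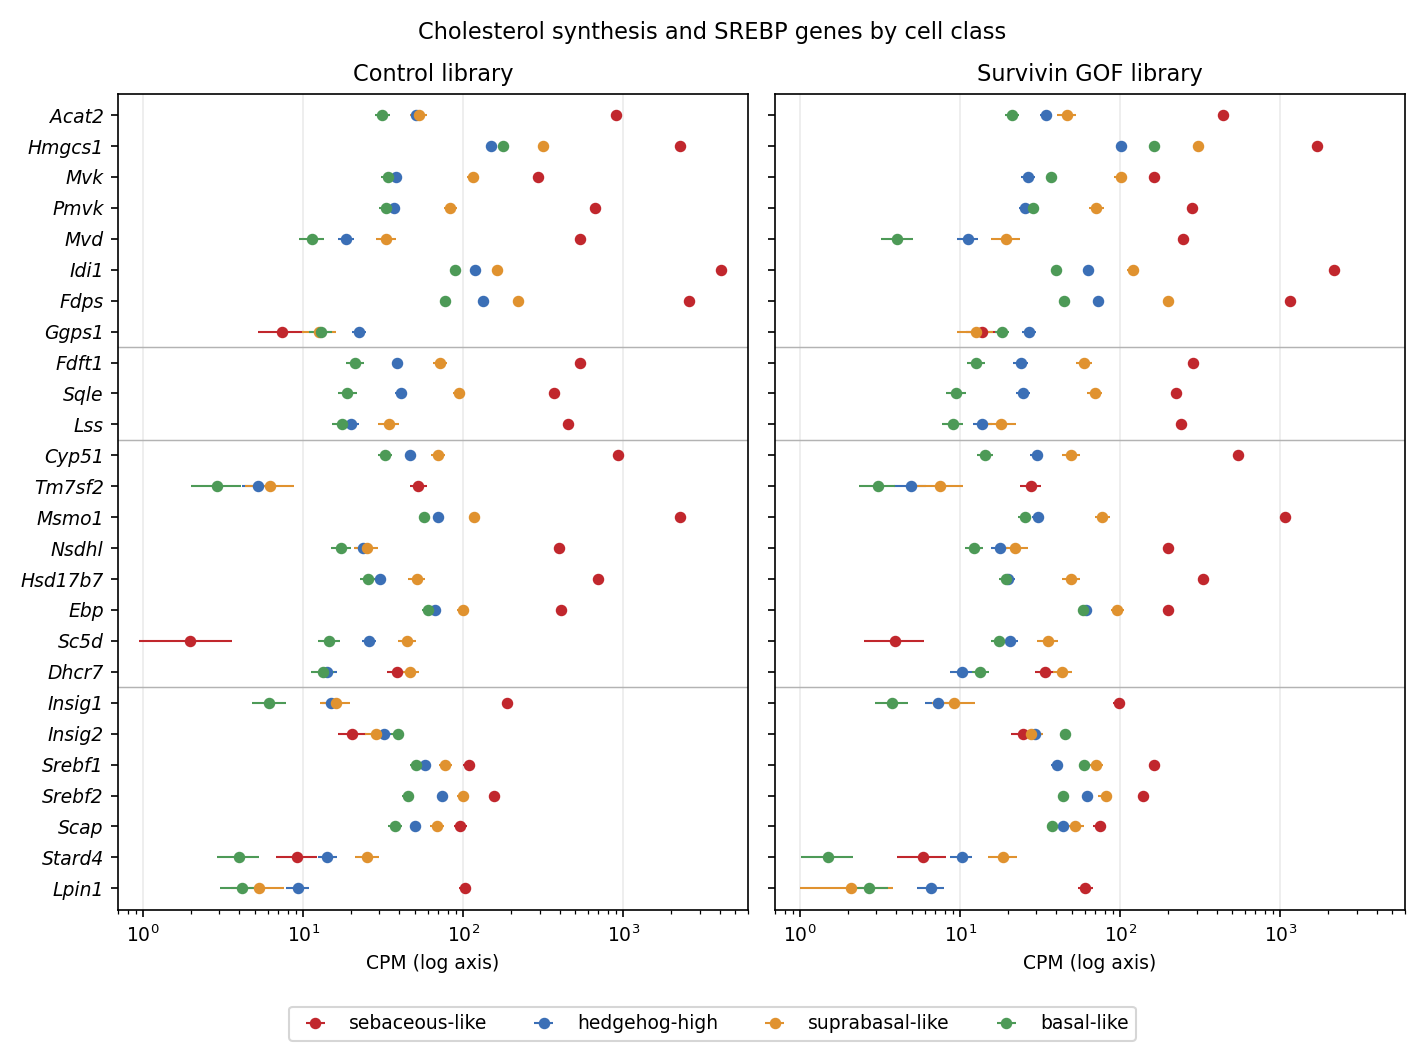
CPM of each member (log axis, exact Poisson 95% intervals of counting error as horizontal bars) in sebaceous-like, hedgehog-high, suprabasal-like and basal-like cells of the control (left) and the Survivin GOF library (right); grey lines part the mevalonate, squalene and sterol steps and the regulators. Sebaceous-like cells have the highest level of 21 of the 26 members in each library, and Sc5d, Insig2 and Ggps1 go the other way.

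Among the mevalonate genes, Idi1, the isomerase that makes the active isoprenoid unit, stood at 4087 CPM (control) and 2183 CPM (GOF) in sebaceous-like cells, against 89.3 and 40.01 CPM in basal-like cells. Its suprabasal-like level was 163 and 120 CPM and its hedgehog-high level 118 and 62.6 CPM. The ratio of sebaceous-like to basal-like cells was thus 45.8 (95% interval 43.0 to 48.8) in the control and 54.6 (50.8 to 58.7) in the GOF library. Mvd, the decarboxylase that completes isopentenyl diphosphate, had the widest gap of the pathway. It stood at 535 and 249 CPM in sebaceous-like and 11.4 and 4.06 CPM in basal-like cells, a ratio of 47.1 (39.5 to 56.7) and 61.2 (48.9 to 77.5). These ratios move with a signal of sebaceous genes in basal-like cells, described with the comparison of the libraries. With that signal taken off basal-like cells, a step chosen after the data had been seen, Idi1 came to 154 times in the control and 67.2 times in the GOF library and Mvd to 170 and 77.4 times, so that the order of the libraries turned round for both genes. The median log2 ratio of the 26 members then went from 4.31 to 4.82 in the control and from 3.70 to 3.76 in the GOF library. Fdps, farnesyl diphosphate synthase, was 33.1 and 25.9 times higher in sebaceous-like cells, and Acat2, the thiolase of the first step, 28.7 and 20.8 times.

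Hmgcs1, the synthase that makes HMG-CoA, also had its highest level there. Basal-like cells held it at 177 and 163 CPM, suprabasal-like at 317 and 306 CPM and sebaceous-like at 2260 and 1703 CPM, so that the ratio to basal-like cells was 12.7 (12.2 to 13.4) and 10.4 (10.0 to 10.9). It was the one mevalonate gene that was lowest in hedgehog-high cells in both libraries, at 149 and 101 CPM. The 2 kinases that follow were less far apart: Pmvk was 19.97 and 9.81 times and Mvk 8.68 and 4.36 times higher in sebaceous-like than in basal-like cells.

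Ggps1 makes geranylgeranyl diphosphate for the prenylation of proteins and so leads away from sterols. It was highest in hedgehog-high cells, at 22.4 and 26.9 CPM, and stood at 12.9 and 18.3 CPM in basal-like, 12.7 and 12.5 CPM in suprabasal-like and 7.43 and 13.7 CPM in sebaceous-like cells. The ratio of sebaceous-like to basal-like cells was 0.57 (0.39 to 0.83) in the control and 0.75 (0.58 to 0.96) in the GOF library. An overlapping gene on the other strand, Arid4b, could not be told apart from it where reads were counted without strand. The same limit holds for Hmgcs1 (Gm48342), Fdft1 (Ctsb), Lss (4930483K19Rik) and Cyp51 (Akap9). The sources used here do not say whether counting used strand.

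All 3 squalene genes had the same order of classes in both libraries: sebaceous-like, suprabasal-like, hedgehog-high and basal-like. Fdft1, squalene synthase, stood at 536, 71.7, 38.7 and 21.2 CPM in that order in the control and at 286, 59.4, 23.9 and 12.6 CPM in the GOF library. Sqle, squalene epoxidase, stood at 371, 94.8, 40.8 and 18.9 CPM and at 222, 69.6, 24.7 and 9.43 CPM. Of the 3 it was the one with the widest step from basal-like to suprabasal-like cells, 5.01 times (4.27 to 5.91) in the control and 7.38 times (6.16 to 8.87) in the GOF library. Lss, lanosterol synthase, stood at 454, 34.3, 20.02 and 17.6 CPM and at 238, 18.1, 13.8 and 8.97 CPM. The intervals of its hedgehog-high and basal-like levels overlapped in the control.

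The sterol steps split. Msmo1, which oxidises the methyl groups of sterols, was 39.7 (36.7 to 43.1) and 42.6 (38.9 to 46.8) times higher in sebaceous-like than in basal-like cells, from 57.2 and 25.3 CPM to 2273 and 1077 CPM. Cyp51, lanosterol demethylase, was 28.5 and 38.3 times higher, Hsd17b7, a ketosteroid reductase, 27.4 and 16.9 times, and Nsdhl, a sterol dehydrogenase, 23.2 and 16.2 times. Tm7sf2, a sterol reductase, was 18.04 and 9.03 times higher, from 2.90 and 3.06 CPM, and overlaps Vps51 on the same strand. Ebp, the sterol isomerase, was 6.84 and 3.37 times higher.

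The last sterol enzymes did not follow. Sc5d, the sterol desaturase, was lowest in sebaceous-like cells, with 1.95 CPM (0.94 to 3.59) among control and 3.95 CPM (2.50 to 5.92) among GOF cells. In the other classes it stood at 44.8 and 35.2 CPM (suprabasal-like), 25.9 and 20.6 CPM (hedgehog-high) and 14.6 and 17.4 CPM (basal-like). The ratio of sebaceous-like to basal-like cells was 0.13 (0.063 to 0.25) and 0.23 (0.14 to 0.35). Dhcr7, the reductase that closes one branch of the pathway, was highest in suprabasal-like cells at 46.6 and 43.5 CPM, next to 38.5 and 33.8 CPM in sebaceous-like cells with overlapping intervals in both libraries. Of the enzyme genes, Sc5d and Ggps1 were thus lower in sebaceous-like than in basal-like cells in both libraries.

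Among the regulators, Srebf1, Srebf2 and Scap differed less between sebaceous-like and basal-like cells than most enzymes did. Srebf1, the SREBP gene tied mainly to fatty acid synthesis, stood at 109 and 162 CPM in sebaceous-like and 50.9 and 59.2 CPM in basal-like cells, a ratio of 2.14 (1.90 to 2.41) and 2.74 (2.52 to 2.99). Srebf2, tied mainly to cholesterol synthesis, was 3.44 and 3.15 times higher and Scap, the escort, 2.57 and 1.97 times. These transcript levels say nothing of how much SREBP protein is cut and active. Insig1, itself a target of SREBPs, followed the enzymes: it was 30.4 (23.8 to 39.3) and 26.1 (20.5 to 33.7) times higher, from 6.16 and 3.76 CPM to 187 and 98.3 CPM.

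Insig2 ran opposite to Insig1. It was highest in basal-like cells, at 39.2 and 45.0 CPM, and lowest in sebaceous-like cells, at 20.3 and 24.7 CPM, a ratio of 0.52 (0.42 to 0.64) and 0.55 (0.46 to 0.66). With Ggps1 and Sc5d, it was lower by 1.5-fold or more in the control, 3 of 26 where 35.6% of all genes were; in the GOF library Ggps1 missed that size, which left 2 of 26, where 24.5% of all genes were lower. Lpin1, a phosphatidate phosphatase that SREBPs also switch on, was 24.95 and 22.4 times higher in sebaceous-like cells, from 4.14 and 2.71 CPM. Stard4, a sterol carrier protein, was highest in suprabasal-like cells, at 25.1 and 18.5 CPM, against 9.19 and 5.83 CPM in sebaceous-like and 3.96 and 1.504 CPM in basal-like cells.

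Suprabasal-like cells also stood above basal-like cells for most members. In the control 22 of 26 were higher than in basal-like cells by 1.5-fold or more, where 14.7% of all genes were, and in the GOF library 21 of 26, where 10.5% were. The median log2 ratio was 1.07 and 1.29, against −0.02 and −0.17 over all genes. The widest ratios in the control were those of Stard4 (6.35 and 12.3 times in the control and GOF library), Sqle, Dhcr7 (3.51 and 3.25 times), Mvk (3.39 and 2.72 times) and Fdft1 (3.38 and 4.72 times). Insig2 was lower, at 0.73 (0.61 to 0.88) and 0.62 (0.51 to 0.74) of the basal-like level. For hedgehog-high cells the count was 12 of 26 in the control, where 28.6% of all genes were higher than in basal-like cells, and 12 of 26 in the GOF library, where 28.2% were. Their median log2 ratio of 0.49 and 0.54 stood near the 0.32 and 0.28 of all genes.

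Thinned to 3000 UMIs each, single cells of cluster 18 held a median of 57 (control) and 46 (GOF) member UMIs, from a median of 14 and 13.5 of the 26 genes. Cluster 2 cells held a median of 6 in both libraries, suprabasal-like cells 6 and 4, and hedgehog-high and basal-like cells 3 and 2. The plot of member UMIs per cell shows that the ranges from the 10th to the 90th percentile of cluster 18 (30 to 84.9 and 24 to 73.3) lay above those of every other class drawn. Idi1 was seen in 92.7% (89.2 to 95.4, Clopper-Pearson) of thinned control sebaceous-like cells and 72.5% (66.2 to 78.2) of GOF ones, and unthinned in 97.7% and 90.4%. In thinned immune-like cells, which have no known role in sebum, it was seen in 26.7% and 15.4%, and unthinned in 63.3% and 50%; their median depth was 9868.5 and 17742.5 UMIs, against 16497 and 22794 for sebaceous-like cells. Sc5d was seen in 0.66% of control and 2.18% of GOF sebaceous-like cells, below the 5% and 9.62% of immune-like cells. Thinning left out 1 control sebaceous-like cell and 91 control and 10 GOF keratinocytes in all.

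**Figure D2:**
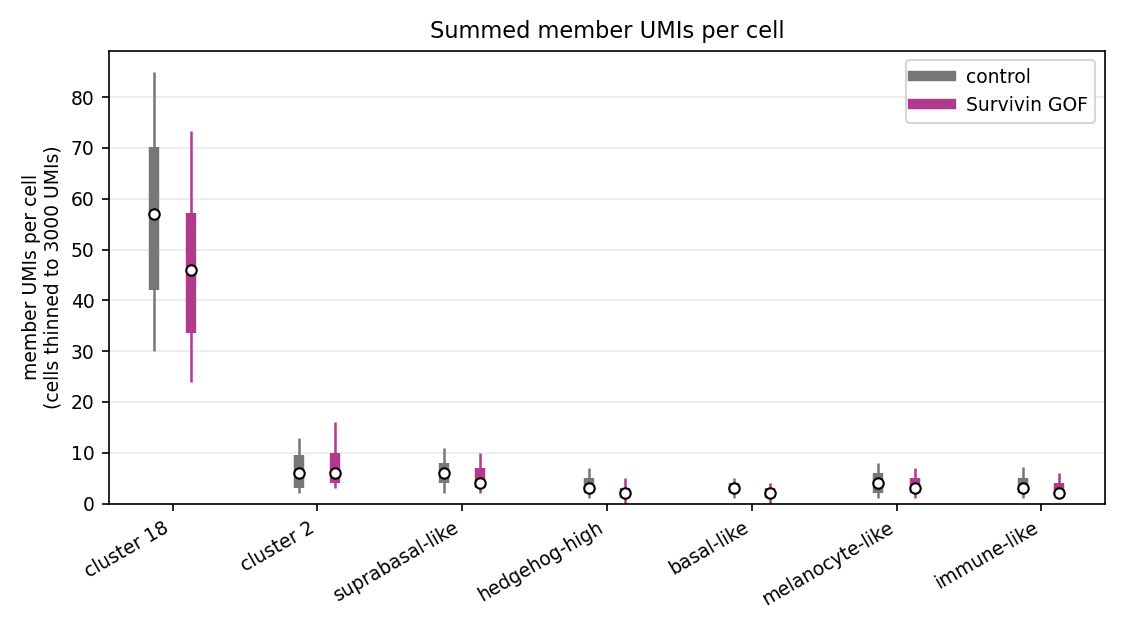
Member UMIs per cell after thinning every cell to 3000 UMIs; open points are medians, thick bars the 25th to 75th and thin lines the 10th to 90th percentile over cells, in the control (grey) and Survivin GOF library (purple). Cluster 18, with medians of 57 and 46, stands apart from cluster 2 (6 and 6) and from the other classes (2 to 6).

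The 2 sebaceous-like clusters differed in how far the pathway was raised. The member UMIs of cluster 18 came to 19638 CPM (control) and 15646 CPM (GOF), and those of cluster 2 to 2798 and 3224 CPM. Relative to basal-like cells the median log2 ratio was 4.42 and 4.36 in cluster 18 and 1.46 and 2.13 in cluster 2. Mvd, for example, stood at 582 and 415 CPM in cluster 18 and at 44.3 and 54.2 CPM in cluster 2. Srebf1 had the reverse order, with 102 and 135 CPM in cluster 18 and 180 and 195 CPM in cluster 2. The 4 genes Cidea, Elovl3, Far2 and Fa2h, summed, stood in cluster 2 at 10.8% of their cluster 18 level in each library.

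Over clusters with at least 50 cells, most members varied together. Spearman's rho between a member's CPM and the sum of the other members was 0.93 over 21 control clusters and 0.89 over 20 GOF clusters for Fdps, 0.91 and 0.89 for Msmo1 and 0.95 and 0.82 for Sqle. It was −0.31 and −0.53 for Ggps1, −0.49 and −0.25 for Insig2 and 0.38 and −0.14 for Sc5d. Insig2 was highest in clusters of the upper hair follicle, with 96.1 CPM in control cluster 4 and 69.0 CPM in GOF cluster 0. Clusters of a library share its depth and any RNA carried between cells, so these are descriptions.

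Taken over all keratinocytes, the pathway was lower in the GOF library. Their sum was 2325 CPM among control and 1505 CPM among GOF keratinocytes. By 1.5-fold or more, 14 of 26 members were lower, where 5.39% of the 14577 genes tested were, and 0 of 26 were higher, where 6.82% were. The median log2 ratio of the members was −0.70, against 0.08 over all genes. The plot of GOF to control ratios shows this pooled value for each member beside 2 others given below.

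**Figure D3:**
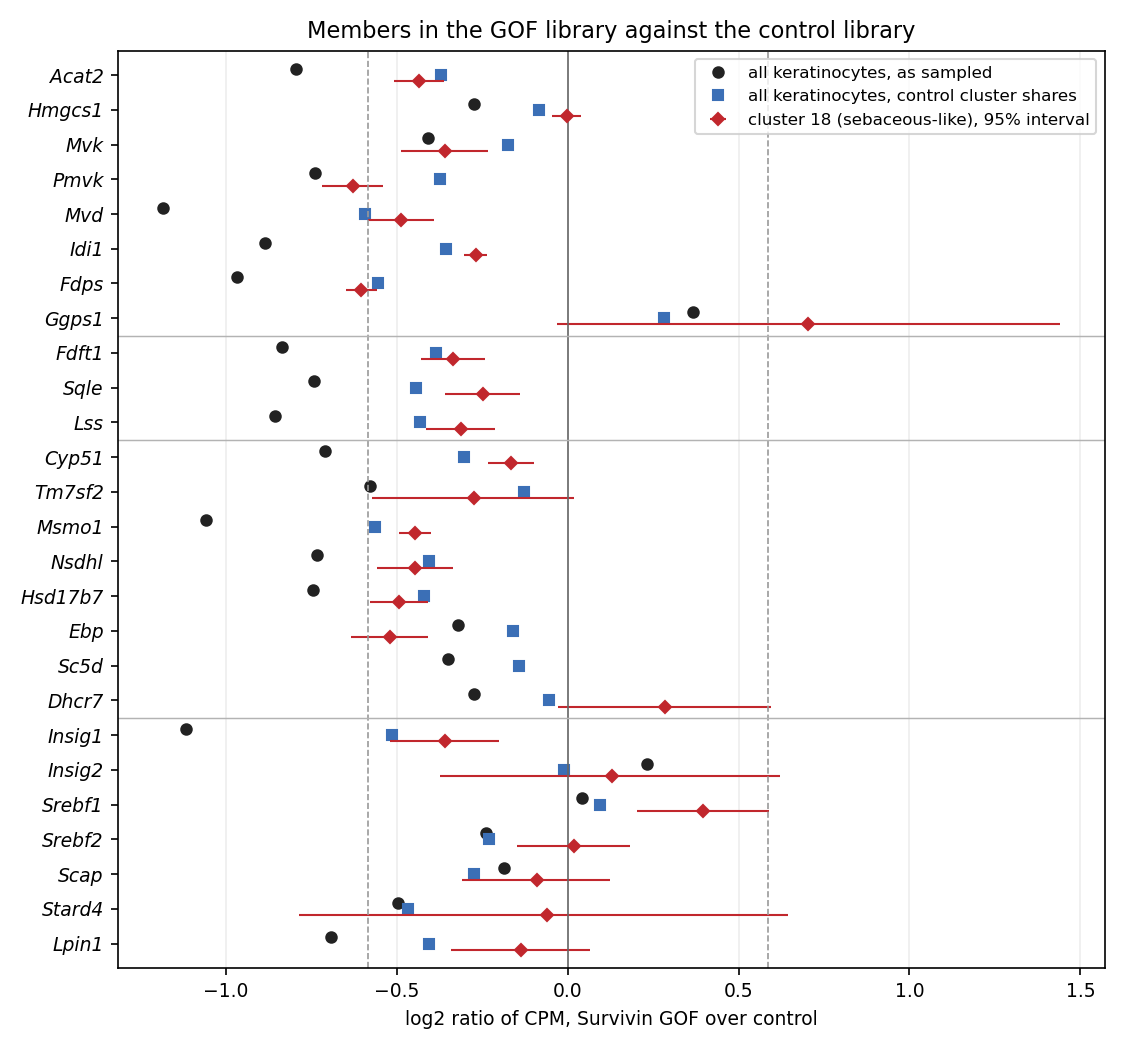
log2 ratio of CPM, Survivin GOF over control, of each member in all keratinocytes as sampled (black), in all keratinocytes after GOF clusters were given the control library's shares (blue), and in cluster 18 (red, with 95% intervals of counting error); dashed lines mark a ratio of 1.5 in either direction. The medians are −0.70, −0.36 and −0.27, and Sc5d had too few UMIs in cluster 18 to be drawn there. The blue values leave out clusters 1, 15, 22, 23 and 24, which had too few cells in 1 library.

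The squalene genes were lower as a group: Fdft1 went from 74.5 to 41.7 CPM, Sqle from 61.9 to 37.0 CPM and Lss from 46.5 to 25.7 CPM, so that all 3 passed 1.5-fold. Of the mevalonate genes 5 of 8 did, with Mvd lowest relative to the control, 52.5 against 23.1 CPM, 2.27-fold lower (2.16 to 2.39). Idi1 went from 363 to 197 CPM and Fdps from 298 to 152 CPM, while Hmgcs1, at 312 and 258 CPM, was 1.21-fold lower. Of the sterol genes 4 of 8 passed, among them Msmo1, with 211 and 102 CPM, 2.08-fold lower (2.03 to 2.13). Of the regulators 2 of 7 passed: Insig1, with 25.8 and 11.9 CPM, and Lpin1, with 11.6 and 7.15 CPM. Ggps1 and Insig2 had ratios above 1, of 1.29 (1.205 to 1.38) and 1.18 (1.12 to 1.23), and Srebf1 was at 60.0 and 61.8 CPM.

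The pooled value moved with the share of sebaceous-like cells of cluster 18. They were 2.70% (2.39 to 3.03) of control and 1.71% (1.40 to 2.06) of GOF keratinocytes and held 39.8% and 33.3% of the member UMIs. In a reweighted comparison, clusters 1, 15, 22, 23 and 24 were left out because they had too few cells in 1 library. With every other GOF cluster given its share of UMIs in the control library, the median log2 ratio of the members was −0.36. In that setting 1 of 26 passed 1.5-fold. Leaving out exactly clusters 1, 15, 22, 23 and 24 without reweighting was not tested. A near setting left out clusters 1, 8, 15, 23 and 24, each almost only from 1 library. There 22 of 26 members stayed within the counting intervals of their ratios as sampled, against 3 with control cluster shares. Over all keratinocytes without the sebaceous-like class the median was −0.58. Sex-called cells moved the same way. Male-called cells alone gave −0.36 over all keratinocytes, with 3.18% (2.79 to 3.61) of control and 3.49% (2.69 to 4.45) of GOF ones in cluster 18. Within the GOF library the members had a median log2 ratio of −0.51 in female-called over male-called cells, and 0.86% (0.58 to 1.22) of the female-called cells were in cluster 18. Within the hedgehog-high, suprabasal-like and basal-like classes the same ratio was −0.06, 0.09 and 0.14.

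Within the sebaceous-like class 18 of 25 members with enough UMIs were lower, where 3.82% of genes were, and 1 of 25 was higher, Ggps1, where 24.0% of genes were. The median log2 ratio was −0.90, against 0.26 over all genes. Of that class 273 of 304 control cells but 108 of 229 GOF cells were in cluster 18. In cluster 18 alone, 2 of 25 were lower, where 2.75% of genes were, Pmvk (719 and 465 CPM) and Fdps (2777 and 1828 CPM), and the median was −0.27, against 0.16 over all genes. The counting interval of the ratio lay below 1 for 15 of the 25. The share of all genes with such an interval was not computed. Idi1 stood at 4450 and 3693 CPM there, 1.205-fold lower (1.18 to 1.23), Msmo1 at 2474 and 1815 CPM, 1.36-fold lower (1.32 to 1.41), and Hmgcs1 at 2425 and 2421 CPM. In cluster 2, with 31 control cells, the median was 0.12, and Hmgcs1 was at 552 and 867 CPM.

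Srebf1 differed in direction between classes. In sebaceous-like cells it was 1.49 times higher (1.34 to 1.66) in the GOF library, and in cluster 18 alone 1.32 times (1.15 to 1.503). In basal-like cells it was 1.16 times higher (1.05 to 1.29). In hedgehog-high cells it was 1.43-fold lower (1.29 to 1.59), at 57.4 and 40.2 CPM, and in suprabasal-like cells, at 77.4 and 70.4 CPM, the interval of its ratio held 1. Whether these ratios differ between classes beyond the spread of mice cannot be tested with 1 library each. Rai1 overlaps Srebf1 on the other strand.

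Outside the sebaceous-like class the members were again lower in the GOF library as counted. In hedgehog-high cells 9 of 26 were, where 5.83% of genes were, with a median log2 ratio of −0.53 against 0.08. In suprabasal-like cells 4 of 25 were, where 6.25% of genes were, with −0.23 against −0.01. In basal-like cells 11 of 26 were, where 4.08% of genes were, with −0.44 against 0.13. The members' median was below 0 in each of the 15 keratinocyte clusters with at least 50 cells in both libraries, from −0.52 to −0.12. In these clusters the median of all genes ran from −0.01 to 0.16. The 15 include cluster 18, and the 14 others were all below 0 over the same range. In basal-like cells Mvd stood at 11.4 and 4.06 CPM, Idi1 at 89.3 and 40.01 CPM and Cyp51 at 32.6 and 14.3 CPM, each more than 2-fold lower, while Hmgcs1, at 177 and 163 CPM, was 1.09-fold and Ebp, at 60.0 and 58.7 CPM, 1.02-fold lower.

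A signal of sebaceous genes in cells of other classes moved with this difference. Cidea, Elovl3, Far2 and Fa2h, which coat lipid droplets or build sebum fatty acids and alcohols, summed to 5564 CPM (control) and 4692 CPM (GOF) in cluster 18. In control basal-like cells they stood at 1.41% of that level, in hedgehog-high cells at 1.41%, in suprabasal-like cells at 1.35%, in melanocyte-like cells at 0.98% and in immune-like cells at 1.31%. In the GOF library the same classes had 0.20%, 0.19%, 0.23%, 0.13% and 0.12%. Over the 14 shared keratinocyte clusters other than cluster 18, the share ran from 0.81% to 1.68% in the control and from 0.12% to 0.26% in the GOF library, without overlap. Barcodes left out by the filter on cells had 10.9% and 3.08%.

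**Figure D4:**
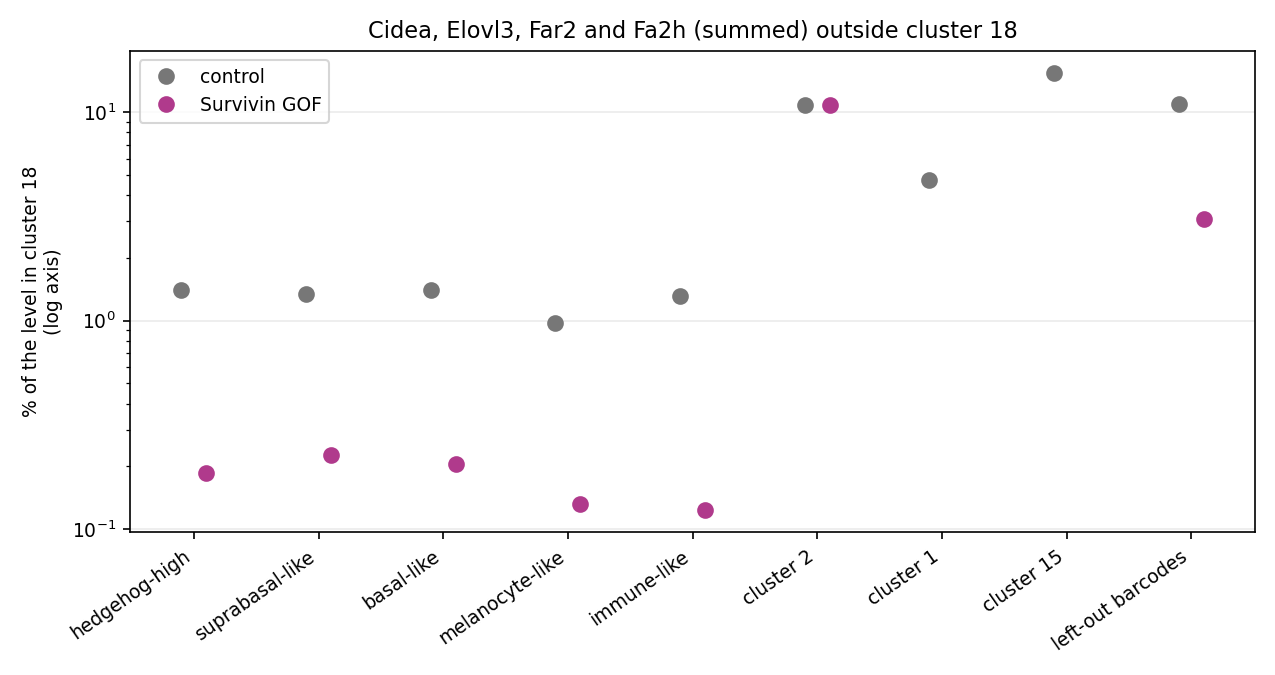
Summed CPM of Cidea, Elovl3, Far2 and Fa2h in each population as a percentage of their level in cluster 18 of the same library (log axis), in the control (grey) and Survivin GOF library (purple). Control cells of unrelated classes lie between 0.98% and 1.41%, GOF cells between 0.12% and 0.23%; clusters 1 and 15 are almost only from the control.

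The cluster 18 profile was therefore taken off each class at that share, an alternative chosen after the data had been seen. In control basal-like cells Idi1 went from 89.3 to 26.6 CPM and in GOF ones from 40.01 to 32.5 CPM, so that its log2 ratio went from −1.16 to 0.29. Mvd went from −1.48 to 0.03 and Msmo1 from −1.18 to −0.05. Over the members of basal-like cells the median went from −0.44 to 0.08 (0.02 to 0.20 when each of the 4 genes alone set the share), and 2 of 26 remained 1.5-fold lower, Sqle (−0.60) and Stard4 (−1.36). In suprabasal-like cells the median went from −0.23 to −0.12 (−0.12 to −0.10), with Lss (−0.68) and Insig1 (−0.59) past 1.5-fold.

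In hedgehog-high cells the median went from −0.53 to −0.20 (−0.26 to −0.13), and Insig1, from −1.03 to −0.79, alone stayed past 1.5-fold. Sqle was at −0.55, Srebf1 at −0.49, Stard4 at −0.46, Dhcr7 at −0.43, Fdps at −0.42 and Fdft1 at −0.41, while Idi1 (0.01), Mvd (−0.01) and Lss (−0.00) were near 0. Over the 14 shared clusters the median ran from −0.23 to 0.18 after subtraction and was below 0 in 10. In the plot of ratios before and after subtraction, members with the widest sebaceous excess shifted most. The pairs of points for Ggps1, Sc5d, Insig2, Srebf1 and Stard4 nearly coincide. This pattern follows from the arithmetic, since the same share of the sebaceous profile was taken off every member of a class. It is therefore no test of where the signal comes from, which was not tested. No interval and no share over all genes was computed for subtracted values.

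**Figure D5:**
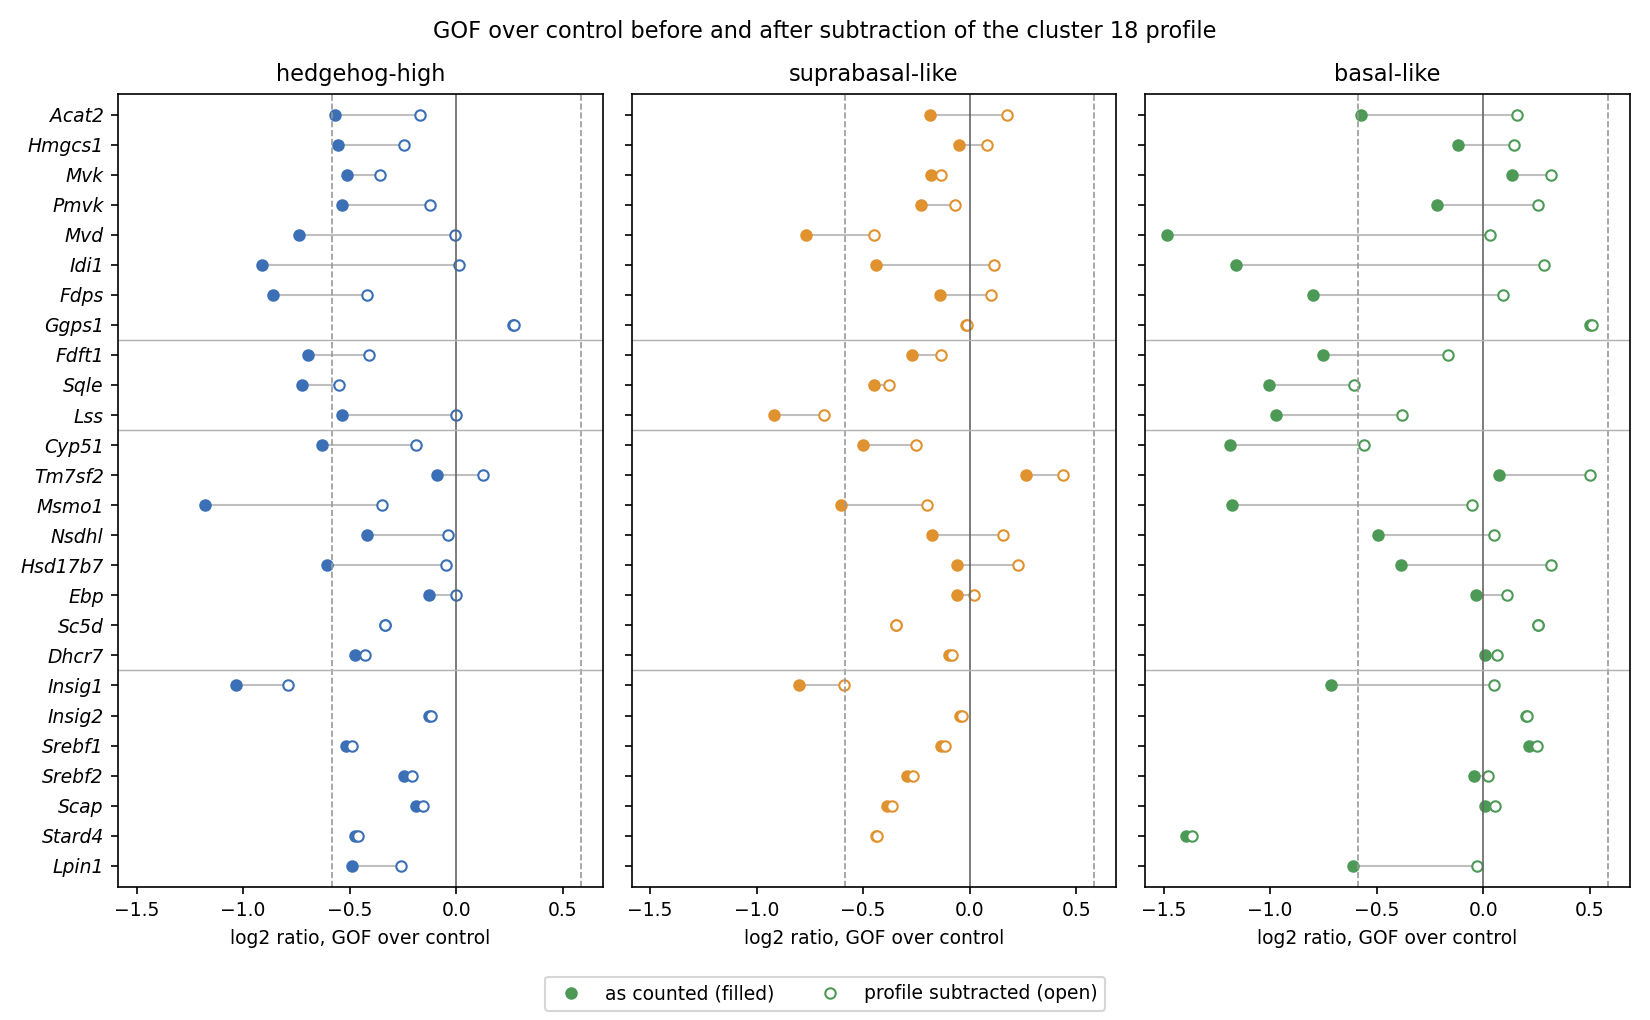
log2 ratio, Survivin GOF over control, of each member with at least 50 UMIs in hedgehog-high, suprabasal-like and basal-like cells, as counted (filled) and after the cluster 18 profile was subtracted (open); dashed lines mark 1.5-fold. In basal-like cells the median moves from −0.44 to 0.08, in hedgehog-high cells from −0.53 to −0.20.

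The subtraction also moved the differences between classes, more in the control than in the GOF library. The median log2 ratio of suprabasal-like over basal-like cells went from 1.07 to 1.55 in the control and from 1.29 to 1.33 in the GOF library, so that the order of the libraries turned round. For Idi1 this ratio went from 1.83 to 3.89 times in the control and from 3.004 to 3.44 times in the GOF library, and for Sqle from 5.01 to 6.73 and from 7.38 to 7.87 times. In hedgehog-high over basal-like cells the median went from 0.49 to 0.76 in the control, where 16 of 26 members were then higher by 1.5-fold or more, and from 0.54 to 0.56 in the GOF library, where 12 were.

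Control cells outside the 4 classes also carried raised levels. Cluster 1 (1706 control and 2 GOF cells), led by genes that included the collagens Col1a1 and Col1a2 and left unnamed, summed to 1843 CPM of member UMIs, and the 4 sebaceous genes stood there at 4.76% of the cluster 18 level. Relative to control cells of cluster 9, its median log2 ratio over members was 0.91, with Idi1 at 250 against 85.4 CPM. Cluster 15 (300 control cells), led by the hair follicle genes Krt71 and Krt75 beside Cidea and Elovl3, summed to 3775 CPM, with the 4 genes at 15.5% of the cluster 18 level. It had 7 of the 13 sebaceous markers at 2-fold or more, against 5 in cluster 2. Only the rule on hair keratins kept it out of the sebaceous-like class. When the members were used in clustering, 221 control and 0 GOF cells led by Cidea and Elovl3 formed a cluster named sebaceous. The make-up of the control class thus depends on this naming. That of the GOF class does too, since 121 of its 229 cells were in cluster 2. With doublets kept, a cluster led by Akr1c18, Gstp3 and Lcn2 like cluster 2 (20 control and 93 GOF cells) was left unnamed.

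Genes next to the pathway were taken from 6 lists and compared over all keratinocytes. Of 10 genes that process SREBPs or carry them between compartments, 0 were 1.5-fold lower or higher (median log2 ratio 0.02). Sec23a, a coat protein of transport vesicles, was at 11.2 and 12.8 CPM, Erlin1, which takes part in sterol-dependent degradation, at 23.1 and 25.6 CPM, and Fbxw7, which marks nuclear SREBP for degradation, at 43.7 and 47.1 CPM. Of 12 genes of fatty acid synthesis and desaturation, 3 were lower and 0 higher (median −0.35). These were Elovl6, the elongase of saturated fatty acids, at 398 and 155 CPM, Acss2, which makes acetyl-CoA from acetate, at 24.6 and 10.8 CPM, and Fasn, fatty acid synthase, at 91.4 and 59.9 CPM. Elovl6, one of the leading genes of cluster 18, stood at 5188 and 2186 CPM in sebaceous-like cells.

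Of 7 LXR receptors and targets, genes that respond to oxysterols, 1 was higher and 0 lower (median 0.04). It was Abcg1, a cholesterol exporter, at 4.93 and 8.63 CPM. Mylip, a ubiquitin ligase, was at 33.3 and 42.8 CPM, and Lpcat3, which remodels phospholipids, at 50.6 and 44.1 CPM. Of 13 genes of cholesterol transport and esterification, 1 was lower and 0 higher (median 0.12): Gramd1b, a sterol carrier between membranes, at 1.25 and 0.63 CPM. Lipa, the lysosomal acid lipase, was at 7.05 and 9.34 CPM, and Soat1, which esterifies cholesterol, at 65.5 and 50.1 CPM.

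Of 16 genes that use isoprenoids, 0 were past 1.5-fold (median −0.10). Zmpste24, which processes prenylated lamin A, was at 31.1 and 41.4 CPM, Nus1, of dolichol synthesis, at 40.4 and 50.3 CPM, and Icmt, which methylates prenylated proteins, at 14.4 and 11.8 CPM. Of 9 genes of the unfolded protein response 0 were past it (median 0.05), with Hspa5, the chaperone BiP, at 166 and 214 CPM, Trib3 at 3.55 and 4.48 CPM and Herpud1, of protein degradation at the endoplasmic reticulum, at 44.9 and 36.1 CPM. Over all genes tested 5.39% were lower and 6.82% higher by that size.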

How the data were processed

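The authors deposited whole-number counts, 1 matrix per library, not normalized, in which each unit is a unique molecular identifier (UMI) of a gene under a barcode. Cell Ranger 6.1.1, R 4.3.0, Seurat 4.2.0 and the build mm10 are named in the submitters' processing notes. The labels state 8046 control cells; the deposited matrix held 24844 barcodes, of which 10993 passed, and the GOF matrix 11438, of which 6922 passed.

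Cells with at least 1500 genes and at most 10% mitochondrial UMIs were kept. The automatic threshold of scrublet marked 0 doublets, so the top 6% of scores was removed (699 and 428 barcodes). Clustering used scanpy 1.11.5 (2000 variable genes, 30 components, 15 neighbours, Leiden resolution 1) without member, Birc5, sex, mitochondrial and ribosomal protein genes. A class needed at least 3 markers, and 1 in 3 of its list, at 2-fold or more, no other list with more markers among the 10 leading genes, and no lead by hair keratins; this rule was set after the clusters had been seen. The members, marker and pathway lists were chosen with earlier results of these data known. Of each pathway list the 3 genes with the largest ratio and 50 pooled UMIs are named. UMIs were summed per population and library and compared as CPM. The ratio intervals were tried on counts simulated with counting error only, which cannot show how they cover spread between cells or mice. Promoter windows came from RefSeq (GRCm38.p6), positions and overlaps from GENCODE vM21, in which 32158 identifiers were found. Gene levels are not compared with one another, since 3′ counts carry no length scale.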

Additional observations from a re-analysis of the deposited data

Results flagged for a closer look

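Srebf1 had opposite directions in the sebaceous-like and the hedgehog-high class. Its log2 ratio of GOF over control was 0.58 in sebaceous-like and −0.52 in hedgehog-high cells, with counting intervals of the ratio on either side of 1. With 1 library per genotype the difference was not tested. Within cluster 18 the value was 0.40.

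The barcodes that the filter on cells left out held the members at 3181 CPM (control) and 1603 CPM (GOF), above the 2325 and 1505 CPM of keratinocytes. Idi1 stood there at 499 and 137 CPM. These barcodes enter no comparison.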

How the results depend on the processing

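With 1 library per genotype, neither mouse-to-mouse spread nor a replicate can be set against any difference between genotypes, and sex, depth and genotype cannot be told apart beyond the within-sex values. No paired analysis was possible because each group is 1 library. Leaving out a replicate was likewise not possible. Control cluster shares, the sebaceous-like class left out and profile subtraction were chosen after the data had been seen. The setting with control cluster shares used only clusters with enough cells in both libraries.

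Over all keratinocytes the median log2 ratio of −0.70 became −0.78 with median-of-ratios scaling, −0.36 in male-called cells, −1.03 in cells without a core mitotic UMI, −0.36 with control cluster shares and −0.58 without the sebaceous-like class, and the 14 lower members became 3 in male-called cells and 1 with control cluster shares. In sebaceous-like cells the median of −0.90 became −1.17 with median-of-ratios scaling, −0.69 in male-called cells, −0.71 with doublets kept, −0.65 in clusters made with the members, −1.03 as a mean of cell shares, −0.72 without mitotic cells and −0.26 with control cluster shares, which left 2 lower members. In hedgehog-high cells the 9 lower members became 15 with median-of-ratios scaling, 14 as a mean of cell shares, 14 without mitotic cells and 1 after subtraction, with a median of −0.20. In suprabasal-like cells the 4 became 2 with at least 2000 genes per cell and 2 after subtraction. In basal-like cells the 11 became 7 without the clusters of 1 library and 2 after subtraction, where the median turned from −0.44 to 0.078. The cause of these shifts was not tested.

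The sebaceous-like over basal-like median of 4.31 in the control became 3.98 in clusters made with the members and 4.71 without mitotic cells, and with the profile subtracted it became 4.82, the hedgehog-high median 0.76 and the suprabasal-like one 1.55. In the GOF library 3.70 became 4.21 in male-called cells, 3.95 without clusters of 1 library, 4.35 with doublets kept, 3.53 as a mean of cell shares and 4.27 without mitotic cells. Of the 26 single members over all keratinocytes, 0 of those called changed sign under the 12 settings tried. Dropping the minimum of UMIs could not change these values, and clusters made with the members left all 26 within their counting intervals. Male-called cells and control cluster shares each moved 23 of 26 outside those intervals. Profile subtraction was not run over all keratinocytes.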
